A study of Homo sapiens with 16 samples.

Results

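Homologous recombination and Fanconi repair were followed through 9 genes, BRCA1, BRCA2, RAD54L, BLM, EXO1, FANCA, FANCD2, FANCG and CHEK1, in MCF-10A cells treated with an inhibitor of the HER2 receptor kinase. The genes were taken by symbol from the deposited array rows, with each probe kept separate, which gave 14 of 20589 rows for 9 of 18190 symbols. Of these probes, 10 were above background often enough to be tested, and they represent 8 of the 9 genes.

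Homologous recombination repairs a broken chromosome by copying from an intact sister, so it works mainly after DNA has been replicated. EXO1 is an exonuclease that trims broken ends, BRCA1 promotes that trimming, BRCA2 prepares the exposed strand for exchange, RAD54L helps the strand invade its partner, and BLM is a helicase that takes joined molecules apart. FANCA and FANCG belong to the Fanconi core complex that attaches ubiquitin to FANCD2 when a crosslink blocks replication, and CHEK1 is the kinase that holds the cell cycle when replication stalls. Transcripts of many of these genes are known to be more abundant in cycling than in resting cells.

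MCF-10A is a nontransformed human breast epithelial line, here grown without serum in medium containing insulin, EGF and hydrocortisone. The inhibitor, CP724,714, was added at 1 µM to parallel plates, and RNA was taken every 3 h from 0 h (untreated) to 45 h, with 1 Illumina human Ref8v2 array for each of 16 time points. Medium was changed when treatment began, and no series without inhibitor was analysed here. An effect of the inhibitor, the fresh medium and time in culture therefore cannot be told apart. The labels name no chip or hybridization batch, so a batch difference between arrays cannot be told apart from these either. No time point was replicated. Every p-value below measures change against scatter around a fitted curve, or within groups of consecutive time points, of a single culture series. That scatter also includes change over time that the fit does not follow.

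On the 16 arrays, between 50.1% and 52.9% of rows were above background, and the correlation between arrays lay between 0.976 and 0.996 (r across rows). Keratins KRT5, KRT17, KRT6A, KRT18 and KRT8 and the adhesion genes EPCAM, CDH1 and CDH3 were above background on all 16 arrays. TP63 was above it on 10, the ITGB4 probes on 16 and 5, and the EGFR probes on 16, 16, 15 and 0. The LAMB3 rows were above it on 4 and 0, and the row on 0 may combine several probes. KRT14 was above background on 1 array, and of the 2 ERBB2 (HER2) rows 1 was above background on 11 arrays and the other on 0. The ERBB2 row above background on 11 arrays has detection p-values that no single probe would give and may combine several. Of the fibroblast markers, COL1A1, COL1A2, COL3A1, PDGFRB and LUM were above background on 0 arrays, and the 3 DCN probes on 0, 2 and 5. Of the immune markers, CD3E and CD79A were above it on 0 arrays, LYZ on 1, the 3 PTPRC probes on 0, 2 and 5, CD14 on 12 and CD68 on 16. Of the endothelial markers, VWF and CDH5 were above it on 0, TEK on 2, and PECAM1 and KDR on 15 each. The part of other cell types in the results was not tested.

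Promoter windows were examined because probes of 7 of the 9 genes, described below, moved together. RefSeq (GRCh38.p14) gave 14 windows for the 9 genes, each reaching from 250 bases before to 50 bases after an annotated start. They were searched on both strands for E2F-type motifs (TTTCCCGC, TTTCGCGC, TTTGCCGC and TTTGGCGC), for the CHR element (TTTGAA and TTCGAA) and for the CCAAT box. Windows of 3 of the 9 genes, EXO1, FANCD2 and FANCA, held an E2F-type match, against 3.99% of 27305 genes with a window. The FANCA probes were close to background, and FANCA is not among the genes that moved together. No CHR match was found in the 14 windows, against 16.4% of 35116 windows overall. CCAAT was found in windows of 5 of the 9 genes (39.7% of all genes), with 3 matches in that of BLM, and no match of one motif overlapped one of another. The windows with an E2F-type match (EXO1, FANCD2 and FANCA) and that of BLM are shown 5′ to 3′ on the strand of the gene. E2F-type and CCAAT matches are in capitals.
EXO1, chr1:241847954-241848253, plus strand: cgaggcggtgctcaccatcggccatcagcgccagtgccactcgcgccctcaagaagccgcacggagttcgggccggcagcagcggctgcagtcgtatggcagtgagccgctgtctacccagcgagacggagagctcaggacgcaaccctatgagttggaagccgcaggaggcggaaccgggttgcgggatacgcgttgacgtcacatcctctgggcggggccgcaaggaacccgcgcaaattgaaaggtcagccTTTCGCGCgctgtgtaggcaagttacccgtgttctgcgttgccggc
FANCD2, chr3:10026187-10026486, plus strand: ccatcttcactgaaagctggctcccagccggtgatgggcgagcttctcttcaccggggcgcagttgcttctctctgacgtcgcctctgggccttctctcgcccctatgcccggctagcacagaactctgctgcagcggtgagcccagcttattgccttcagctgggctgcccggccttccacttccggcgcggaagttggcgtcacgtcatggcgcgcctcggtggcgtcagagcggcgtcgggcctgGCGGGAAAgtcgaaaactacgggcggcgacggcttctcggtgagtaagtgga
FANCA, chr16:89816598-89816897, minus strand: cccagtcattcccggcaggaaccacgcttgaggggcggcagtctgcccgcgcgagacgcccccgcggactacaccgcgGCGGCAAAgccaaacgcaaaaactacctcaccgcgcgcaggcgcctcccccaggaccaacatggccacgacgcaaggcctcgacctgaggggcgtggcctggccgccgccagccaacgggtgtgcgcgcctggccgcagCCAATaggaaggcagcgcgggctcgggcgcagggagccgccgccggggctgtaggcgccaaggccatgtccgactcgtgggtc
BLM, chr15:90717096-90717395, plus strand: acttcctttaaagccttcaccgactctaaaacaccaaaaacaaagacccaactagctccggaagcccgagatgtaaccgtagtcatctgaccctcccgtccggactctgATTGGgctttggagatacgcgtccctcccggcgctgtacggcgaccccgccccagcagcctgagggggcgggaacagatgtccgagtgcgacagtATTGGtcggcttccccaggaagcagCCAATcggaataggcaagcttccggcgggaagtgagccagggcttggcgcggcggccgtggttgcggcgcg
The E2F-type match began 5 bases into the EXO1 transcript, counted from 1 at the annotated start of the window shown. The window of the other EXO1 start held no E2F-type match. The FANCD2 match began 2 bases before the start. The FANCA match began 172 bases before it. These matches describe letters only, and binding was not measured.

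Transcripts of 7 genes followed a similar course. BRCA1, RAD54L, EXO1, BLM, FANCD2, FANCG and CHEK1 were higher at 12 to 21 h than at 0 to 9 h by 1.48-fold to 2.51-fold, showed no called change at 24 to 33 h, and then fell by 1.56-fold to 3.42-fold at 36 to 45 h. In this bulk RNA, fewer cells expressing a gene and less RNA per cell cannot be told apart. Levels are given as log2 of the background-corrected, quantile normalized intensity, and a level is compared only within a probe.

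**Figure D1:**
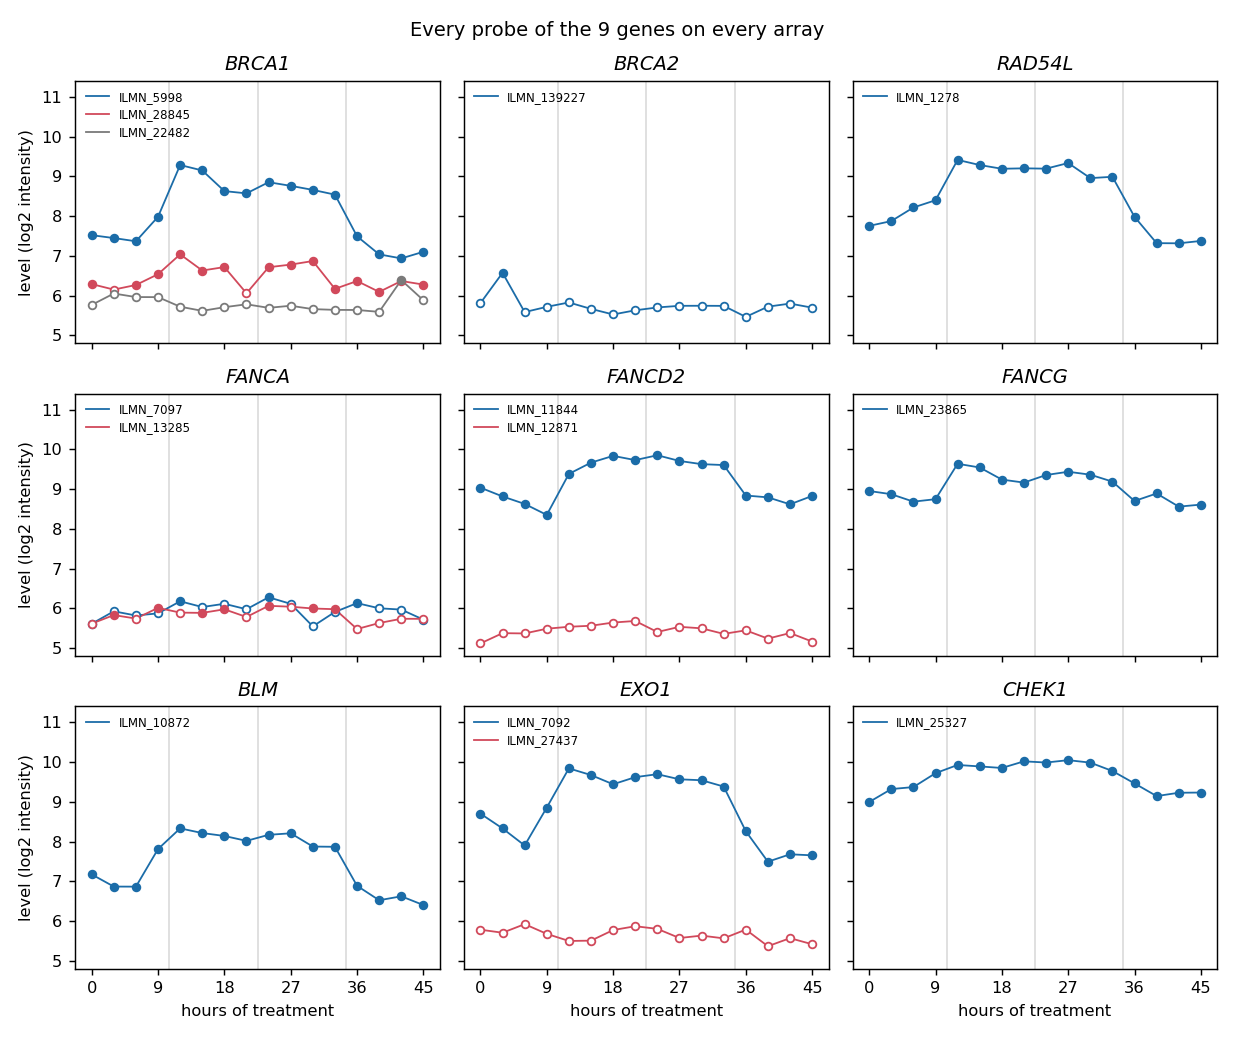
Level (log2 intensity) of each of the 14 probes against hours of treatment, 1 panel a gene and 1 point an array. Filled points were above background (detection p under 0.05), open points were not, and grey lines separate the 4 windows of 4 time points. One probe of each of BRCA1, RAD54L, FANCD2, FANCG, BLM, EXO1 and CHEK1 is high from 12 to 33 h, while BRCA2, FANCA and the second EXO1 and FANCD2 probes stay near background.

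Of the mediators of strand exchange, BRCA1 gave the clearest change. Probe ILMN_5998 read 7.52, 7.45, 7.37 and 7.99 at 0, 3, 6 and 9 h, and 9.29, 9.15, 8.63 and 8.57 at 12, 15, 18 and 21 h. It read 8.85, 8.76, 8.66 and 8.54 at 24, 27, 30 and 33 h, then 7.49, 7.04, 6.94 and 7.10 at 36, 39, 42 and 45 h. All 8 arrays from 12 to 33 h were thus above the other 8, and the highest (12 h) was 5.09-fold above the lowest (42 h). The level rose by 1.33 (SE 0.18) from the first window to the second and fell by 1.56 (SE 0.18) from the third to the fourth (limma, adjusted p = 4.5e-05 and 3.5e-06). Without background correction these differences were 0.85 and -0.91, still past the threshold.

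The other BRCA1 probes carried less signal. ILMN_28845 was above background on 14 arrays and ranged from 6.06 at 21 h to 7.04 at 12 h. Its differences, 0.30 (SE 0.18) for 12 to 21 h and -0.36 (SE 0.18) for 36 to 45 h against the window before, did not pass the test (limma, adjusted p = 0.24 and 0.14). Leaving out the 21 h array brought the first past the threshold (adjusted p = 0.040), and leaving out 33 h the second (adjusted p = 0.033). ILMN_22482 was above background at 42 h alone and was not tested. For BRCA2, which acts between trimming and strand exchange, the single probe was above background at 3 h alone, at a level of 6.58, and read between 5.47 and 5.83 on the other 15 arrays.

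RAD54L, the motor protein of strand invasion, read higher at each step from 0 to 12 h. It read 7.76, 7.88, 8.22 and 8.40 at 0 to 9 h and 9.42, 9.29, 9.19 and 9.20 at 12 to 21 h. It then read 9.20, 9.34, 8.96 and 8.99 at 24 to 33 h and 7.98, 7.32, 7.32 and 7.38 at 36 to 45 h. The 8 arrays from 12 to 33 h did not overlap those before or after, and the last 3 arrays were below the untreated one. RAD54L rose by 1.21 (SE 0.16) to the second window and fell by 1.62 (SE 0.16) to the fourth (limma, adjusted p = 4.9e-05 and 1.1e-06); the fall was -1.04 without background correction.

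EXO1, the end-trimming exonuclease, showed the largest fall among the 9 genes. ILMN_7092 read 8.70, 8.33, 7.90 and 8.86 at 0 to 9 h and 9.84, 9.67, 9.44 and 9.62 at 12 to 21 h. It read 9.69, 9.57, 9.54 and 9.38 at 24 to 33 h and 8.26, 7.49, 7.68 and 7.65 at 36 to 45 h. EXO1 thus dipped to 6 h, stood high on 8 arrays in a row, and ended below every earlier array from 39 h on. It rose by 1.20 (SE 0.19) and later fell by 1.77 (SE 0.19), which is 3.42-fold (limma, adjusted p = 0.00017 and 1.6e-06). The second EXO1 probe, ILMN_27437, was above background on 0 arrays and gives no reading of the gene.

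BLM, the helicase mutated in Bloom syndrome, also fell to its lowest levels late. It read 7.17, 6.87, 6.87 and 7.81 at 0 to 9 h and 8.33, 8.21, 8.14 and 8.02 at 12 to 21 h. It read 8.17, 8.21, 7.87 and 7.87 at 24 to 33 h and 6.89, 6.52, 6.62 and 6.40 at 36 to 45 h. The array at 9 h already lay just below the lowest array of 12 to 33 h, and the lowest 3 values were the last 3. BLM rose by 1.00 (SE 0.18) and fell by 1.42 (SE 0.18; limma, adjusted p = 0.00059 and 1.1e-05), or 0.53 and -0.70 without background correction.

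Among the Fanconi genes, FANCD2, the protein that is ubiquitinated at crosslinks, read lower at each step of the first window. ILMN_11844 read 9.04, 8.82, 8.63 and 8.35 at 0 to 9 h and 9.38, 9.67, 9.84 and 9.73 at 12 to 21 h. It read 9.85, 9.71, 9.63 and 9.61 at 24 to 33 h and 8.84, 8.79, 8.62 and 8.83 at 36 to 45 h. Its lowest array was thus 9 h and its highest 24 h, 2.83-fold apart, whereas BRCA1, RAD54L, BLM, EXO1 and FANCG were highest at 12 h. FANCD2 rose by 0.95 (SE 0.13) and fell by 0.93 (SE 0.13; limma, adjusted p = 6.8e-05 and 3.5e-05). The row has detection p-values that no single probe would give and may combine several, and the second row, ILMN_12871, was above background on 0 arrays.

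FANCG, of the core complex, changed less. It read 8.95, 8.87, 8.69 and 8.75 at 0 to 9 h and 9.64, 9.54, 9.24 and 9.16 at 12 to 21 h. It read 9.36, 9.44, 9.36 and 9.19 at 24 to 33 h and 8.70, 8.89, 8.56 and 8.61 at 36 to 45 h. The 8 middle arrays lay above the other 8, with a rise of 0.58 (SE 0.12) and a fall of 0.65 (SE 0.12; limma, adjusted p = 0.0014 and 0.00037). FANCA, of the same complex, was close to background: ILMN_7097 was above it on 3 arrays. ILMN_13285 was called above it on 7, but this row too has detection p-values that no single probe would give, and on all 16 arrays its level lay below the lowest level of any single-probe row above background. Its difference of -0.37 (SE 0.10) at 36 to 45 h passed the test (limma, adjusted p = 0.0076), rests on those values alone, and is given no fold.

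CHEK1, the checkpoint kinase, had the narrowest range of these 7 genes. It read 8.99, 9.32, 9.37 and 9.72 at 0 to 9 h and 9.93, 9.89, 9.85 and 10.02 at 12 to 21 h. It read 9.99, 10.05, 9.99 and 9.78 at 24 to 33 h and 9.46, 9.14, 9.23 and 9.23 at 36 to 45 h. CHEK1 was lowest on the untreated array, read higher at each step to 12 h, and at its highest (27 h) was 2.08-fold above it. It rose by 0.57 (SE 0.12) and fell by 0.68 (SE 0.12; limma, adjusted p = 0.0024 and 0.00034).

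Across the whole course, 7 of the 10 tested probes changed with time, 1 for each of those 7 genes, against 54.6% of all 11957 tested probes (limma F-test on a spline with 3 df). Their adjusted p-values ran from 2.9e-06 for RAD54L to 0.0059 for FANCG. A straight line over time called 0 of the 10. At 12 to 21 h against 0 to 9 h, 7 of 10 probes were called higher and 0 lower, where 15.1% and 14.4% of all probes were called. The median difference of the 10 probes was 0.76, against -0.00 for all probes. With median scaling the members' count was again 7 and 0, while the split of all probes went from 1807 higher and 1720 lower to 2805 and 1030.

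Between 12 to 21 h and 24 to 33 h, 0 of the 10 probes were called in either direction (0 at an unadjusted p under 0.05), as were 0% of all probes higher and 0.0251% lower (585 of all probes in either direction at an unadjusted p under 0.05). The intervals bound the change that could have gone undetected. The 95% interval of the difference ran from -0.58 to 0.17 for BRCA1, from -0.24 to 0.33 for FANCD2 and from -0.23 to 0.29 for CHEK1.

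At 36 to 45 h against 24 to 33 h, 8 of 10 probes were called lower and 0 higher, where 18.7% of all probes were called lower and 19.3% higher. The 8 were the 7 probes called at 12 to 21 h and FANCA ILMN_13285, whose levels were below those of single probes above background. With median scaling 8 were called lower too, where all probes split into 1719 higher and 2933 lower in place of 2309 and 2233. The median of the 10 probes was -0.81, against -0.00 for all probes.

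**Figure D2:**
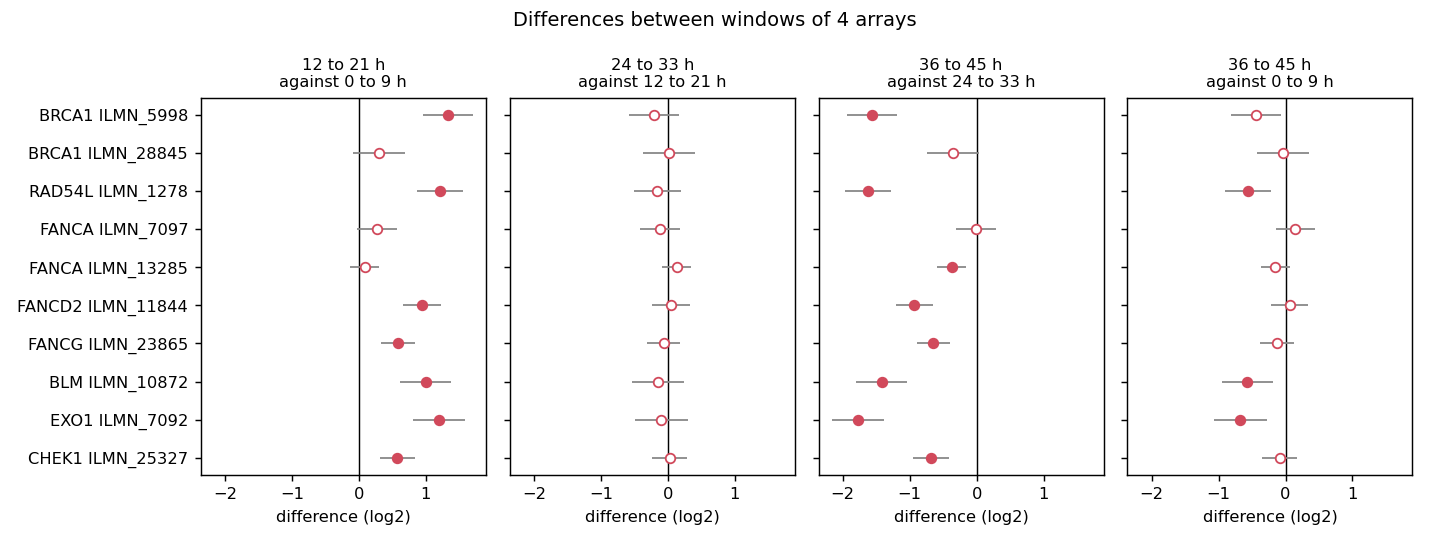
Difference in level (log2, later window minus earlier) for the 10 tested probes in 4 comparisons of windows of 4 arrays. Points are the limma estimates and bars their 95% intervals, and filled points have an adjusted p under 0.05. Of the 10 probes, 7 are called higher at 12 to 21 h, 0 at 24 to 33 h in either direction, 8 lower at 36 to 45 h, and 3 lower at the end than at the start.

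The end of the course was compared with its start to see whether levels returned to where they began. At 36 to 45 h against 0 to 9 h, 3 of 10 probes were called lower and 0 higher, where 15% of all probes were called lower and 16.2% higher. EXO1 was lower by 0.68 (-0.68, SE 0.19), BLM by 0.57 (-0.57, SE 0.18) and RAD54L by 0.56 (-0.56, SE 0.16; limma, adjusted p = 0.010, 0.023 and 0.014), and in all of them single arrays of both windows overlapped. These calls were lost when only the 8 arrays compared were fitted (adjusted p = 0.067, 0.089 and 0.075), and with median scaling EXO1 alone kept its call. For FANCD2, FANCG and CHEK1 the 95% intervals ran from -0.22 to 0.34, -0.37 to 0.13 and -0.35 to 0.18, and BRCA1 ILMN_5998 stood at -0.44 (SE 0.18, limma adjusted p = 0.070).

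Within the first window the genes did not all read in 1 direction. At 6 and 9 h against 0 and 3 h, FANCD2 was called lower by 0.44 (-0.44, SE 0.14; limma, adjusted p = 0.034), 1 of 10 probes where 11.5% of all probes were called lower, and 0 were called higher where 13.2% were. RAD54L stood at 0.49 (SE 0.18) and CHEK1 at 0.39 (SE 0.15) in the other direction, both with groups that did not overlap, and missed the threshold (limma, adjusted p = 0.053 and 0.070). The FANCD2 call was lost without the 0 h array (adjusted p = 0.21), without the 9 h array (0.26) and with median scaling (0.082), under which RAD54L and CHEK1 were called higher (0.043 and 0.037). Whether FANCD2 differed from RAD54L or CHEK1 was not tested.

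Single steps of 3 h located the changes, with no test since each rests on 1 array a side. From 6 to 9 h, BLM and EXO1 were at least 1.7-fold higher, 2 of 10 probes where 1.11% of all probes were. From 9 to 12 h, FANCD2, RAD54L, FANCG, BRCA1 and EXO1 were, 5 of 10 where 4.29% of all probes were. BRCA1 made the largest of these steps, 1.30 on the log2 scale. From 33 to 36 h, BLM, FANCD2, RAD54L, BRCA1 and EXO1 were at least 1.7-fold lower, 5 of 10 where 2.98% of all probes were, and EXO1 passed it again from 36 to 39 h. CHEK1 passed 1.7-fold at no step, its largest being 0.35. The 13 such steps became 3 without background correction. Among all tested probes, 3.08% were at least 1.7-fold lower from 9 to 12 h and 3.42% higher from 33 to 36 h. Whether an array batch contributed to these steps was not tested.

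**Figure D3:**
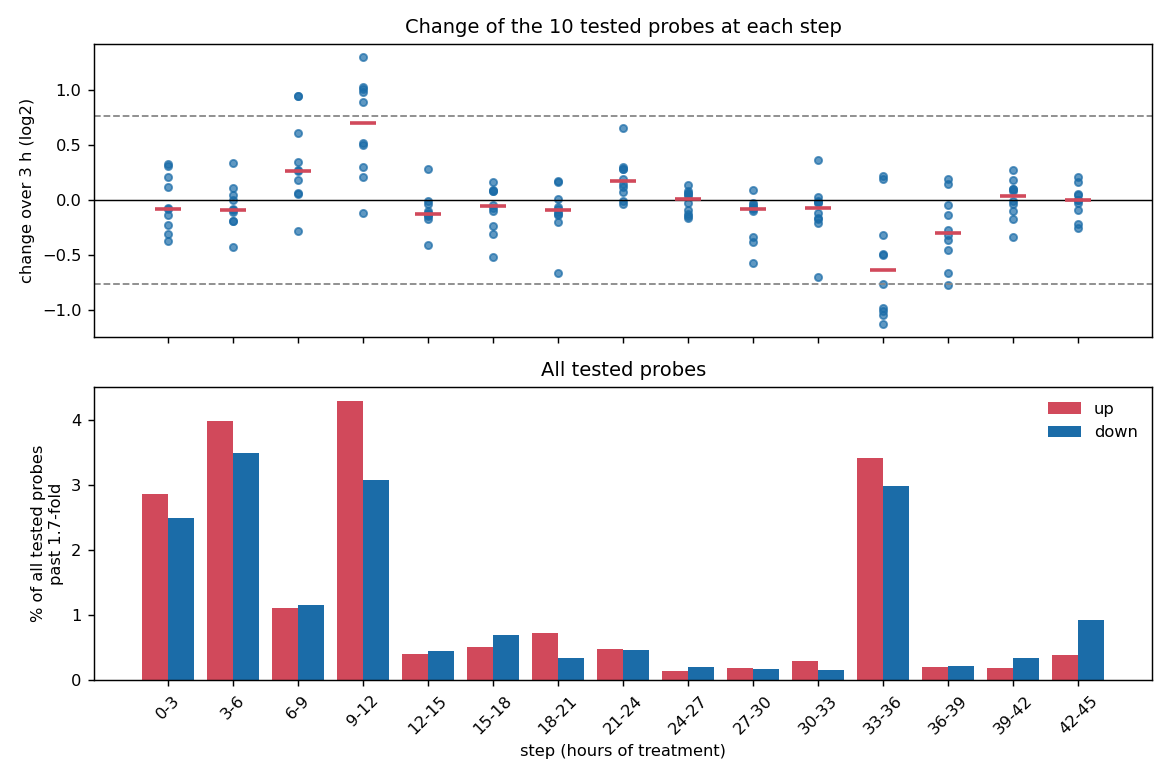
Top, change in level over each step of 3 h (log2) for the 10 tested probes (points), with their median (red bar) and 1.7-fold (dashed lines). Bottom, percent of all tested probes at least 1.7-fold up (red) or down (blue) at the same step. The member probes step up at 9 to 12 h, with a median of 0.71, and down at 33 to 36 h, with a median of -0.63, and both steps also hold more changed probes overall than the steps between them.

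The likeness of the courses is described by Pearson's r over the 16 arrays, which share 1 time order and are not independent. Against the mean scaled course of the other member probes, r was 0.97 for BRCA1 ILMN_5998, 0.96 for RAD54L and BLM, 0.94 for EXO1, 0.92 for CHEK1, 0.90 for FANCG and 0.80 for FANCD2. The dimmer probes followed less closely, with 0.71 for FANCA ILMN_13285, 0.66 for BRCA1 ILMN_28845 and 0.37 for FANCA ILMN_7097. Outside the 9 genes, the probes most like the mean course were those of SDC1, KNTC1, CDC7, GCDH, HELLS, CHTF18, TRIP13, VRK1, GMNN and SLC25A13, with r from 0.98 down to 0.97. CDC7 is a kinase that fires replication origins, GMNN restrains their relicensing, CHTF18 loads the replication clamp, and KNTC1 acts at the kinetochore. SDC1 is a cell surface proteoglycan, and GCDH and SLC25A13 are mitochondrial proteins.

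The 10 probes also ran close to DNA replication genes, with a median r of 0.92 over 32 probes of that list, 0.84 over 26 mitosis probes and -0.01 over all 11947 other tested probes. At 9 h the mean scaled level was 0.14 SD for the replication probes, -0.12 for the member probes and -0.71 for the mitosis probes, and at 12 h it was 0.89, 1.12 and 1.02. At 6 and 9 h against 0 and 3 h, 8 of 26 mitosis probes were called lower and 0 higher, where 11.5% of all probes were called lower and 13.2% higher. Of the 32 replication probes 3 were called lower and 1 higher. The difference between these lists was not tested.

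**Figure D4:**
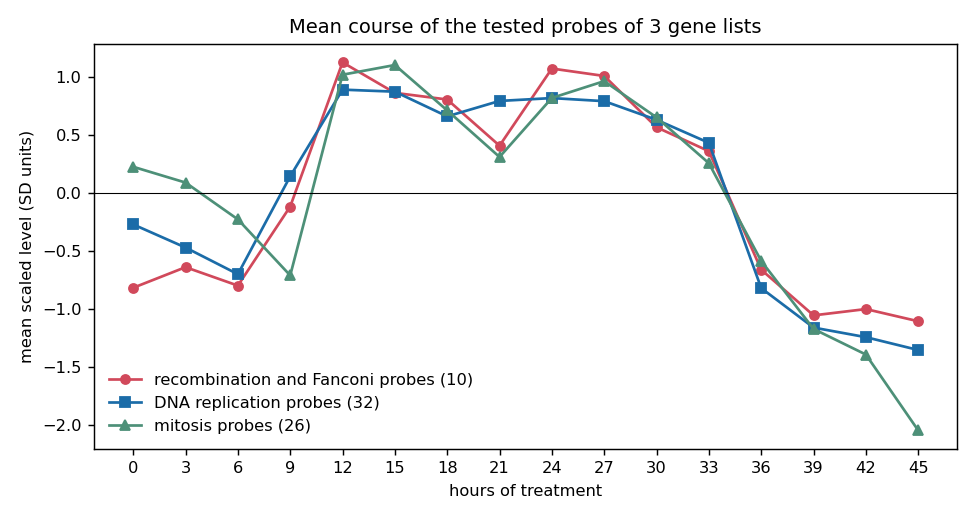
Mean scaled level (each probe centred and divided by its SD over the 16 arrays) against hours of treatment for the 10 tested probes of the 9 genes (red circles), 32 DNA replication probes (blue squares) and 26 mitosis probes (green triangles). All of the lists are above their mean from 12 to 33 h and below it from 36 h. The mitosis probes are at 0.25 at 33 h, close to their 0.22 at 0 h. At 9 h the mitosis probes are at -0.71 while the others are at -0.12 and 0.14.

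Other genes of these pathways were read from fixed lists. Of all tested probes, 15.1% were called higher and 14.4% lower at 12 to 21 h. At 36 to 45 h these shares were 19.3% and 18.7%. In none of the lists was the share called lower at 12 to 21 h, or higher at 36 to 45 h, above that of all probes. Of 10 tested probes for strand exchange and its mediators, 5 were called higher and 1 lower at 12 to 21 h, and 0 higher and 6 lower at 36 to 45 h, each against the window before. XRCC3, which takes part in strand exchange, rose by 0.89 (SE 0.29) and then fell by 1.66 (SE 0.29; limma, adjusted p = 0.026 and 0.00021). XRCC2, of the same family, rose by 0.47 (SE 0.14; limma, adjusted p = 0.016) and stood at -0.15 (SE 0.14) at 36 to 45 h, which missed the threshold (adjusted p = 0.44). XRCC2 was above background on 10 arrays and averaged 5.88, 6.35, 6.20 and 6.05 in the 4 windows. These levels are close to background, so the size of both differences is uncertain. SHFM1, a small BRCA2 partner named here after its value was seen, was the probe called lower at 12 to 21 h (-0.34).

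For end resection and processing, 6 of 17 tested probes were called higher and 0 lower at 12 to 21 h, and 2 higher and 10 lower at 36 to 45 h. MRE11A, the nuclease that opens the end, rose by 1.09 on ILMN_6592 (SE 0.15; limma, adjusted p = 4.9e-05). It stood at -0.41 (SE 0.15) at 36 to 45 h (limma, adjusted p = 0.036). It was then still 0.96 (SE 0.15) above 0 to 9 h (limma, adjusted p = 9.6e-05). The other MRE11A row was above background on 0 arrays. The BLM partner RMI1 rose by 0.67 (SE 0.12) and later fell by 0.99 (SE 0.12). RECQL5, a helicase related to BLM, rose by 0.83 (SE 0.16) on ILMN_22518 at 36 to 45 h, when BLM fell. That probe was dim, with averages of 6.57, 6.59, 6.30 and 7.13 in the 4 windows. The other RECQL5 probes were above background on 0 arrays.

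For the Fanconi partners, 6 of 16 tested probes were called higher and 1 lower at 12 to 21 h, and 0 higher and 9 lower at 36 to 45 h. FANCI, which pairs with FANCD2, rose by 1.14 (SE 0.15) and fell by 1.51 (SE 0.15; limma, adjusted p = 4.6e-05 and 1.1e-06). UBE2T, the ubiquitin-conjugating enzyme for FANCD2, rose by 0.75 (SE 0.15) and fell by 1.39 (SE 0.15). FAN1, a nuclease named here after its value was seen, was the one called lower at 12 to 21 h (-0.22).

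In the ATR-CHEK1 checkpoint list, 2 of 14 tested probes were called higher and 1 lower at 12 to 21 h, no larger a share than among all probes, and 1 higher and 7 lower at 36 to 45 h. TIMELESS, a replication fork protein, rose by 0.54 (SE 0.12) and fell by 1.29 (SE 0.12). CDC25A, a phosphatase that CHEK1 targets, stood at 0.62 (SE 0.30) at 12 to 21 h, which was not called (limma, adjusted p = 0.14). CDC25A then fell by 1.85 (SE 0.30, limma, adjusted p = 0.00011), on a row that may combine several probes. RAD17, the loader of the checkpoint clamp, went the other way on ILMN_9989, at -0.50 (SE 0.10) and then 0.53 (SE 0.10). Its other tested row, which may also combine several probes, stood at 0.19 and 0.18 and was called in neither comparison.

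Of the remaining repair lists, end joining had 3 of 7 tested probes higher at 12 to 21 h and 4 lower at 36 to 45 h, and mismatch repair had 3 of 6 and 3 of 6, with 0 in the opposite direction. The DNA-dependent kinase gene PRKDC rose by 0.63 (SE 0.10), and the mismatch sensor MSH6 rose by 0.60 (SE 0.16). In DNA replication, 26 of 32 tested probes were called higher at 12 to 21 h and 30 lower at 36 to 45 h, and the 1 probe called the other way in both comparisons was that of POLA1, the catalytic subunit of DNA polymerase alpha, named here after its value was seen, at -0.62 (SE 0.14) and 0.51 (SE 0.14). In mitosis, 17 of 26 were called higher and 1 lower, and then all 26 lower. Of the G1/S regulators, 7 of 14 were called higher and 0 lower, then 1 higher and 7 lower, and the activator E2F1 stood at 0.92 (SE 0.20) and then -1.87 (SE 0.20), called in both.

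**Figure D5:**
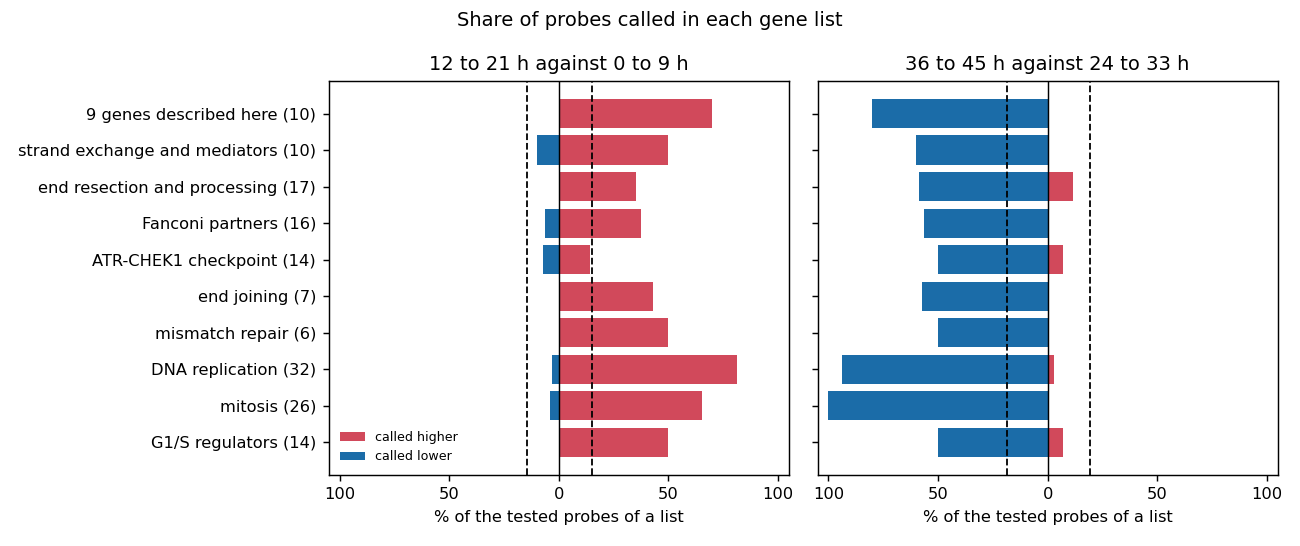
Percent of the tested probes of each list called higher (red, to the right) or lower (blue, to the left) by limma at an adjusted p under 0.05, for 12 to 21 h against 0 to 9 h (left panel) and 36 to 45 h against 24 to 33 h (right panel). The number of tested probes is in parentheses and dashed lines mark the share of all tested probes called in each direction. Of the 9 genes described here, 7 of 10 probes are called higher and then 8 of 10 lower, and the ATR-CHEK1 checkpoint list, with 2 of 14 higher, is the nearest to the dashed line on the left.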

How the data were processed

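RNA from MCF-10A cells at 16 time points was measured on 1 Illumina human Ref8v2 array each. The authors deposited bead intensity values on a linear scale and without any scaling across arrays, and for every value a detection p-value. The study's methods state quantile normalization. The scanner software, background correction and build are not given in the sources used here. All 32 columns were assigned from the labels, with 1 array per group.

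Intensities were corrected with normexp (offset 16, control level inferred from the detection p-values of 19092 rows whose values fit a single probe), quantile normalized and log2 transformed in limma 3.58.1 (R 4.3.3). The inferred control mean was 166 to 199 with an SD of 35.4 to 44.0. A probe was tested if 3 or more arrays gave it a detection p below 0.05, 11957 in all. Tests were limma moderated tests with an intensity trend, adjusted by Benjamini-Hochberg over all tested probes and called under 0.05. They were an F-test on a spline with 3 df, contrasts between 4 windows of 4 time points (12 residual df), and a contrast between pairs of time points (8 residual df). Windows are not replicates, and their spread includes change within a window. The code was tested on simulated data. The precision is limited by the number of arrays.

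The 9 genes and the gene lists were chosen with earlier results of these data known. Every probe of the 9 genes is named. From each list, probes were named among the 4 with the largest difference in a comparison described, with the other probes and comparisons of a gene so named, beside a few said in the text to be named after their values were seen, and outside the lists the 10 probes most like the mean course. Of the list symbols, 11 were not matched on the array. Some genes of the lists are counted but not reported here by name. The symbols of the 9 genes are those of the file. Some list genes, which the file holds under older symbols, are given by their current ones (FANCI, RMI1, FAN1, POLA1, EPCAM and TP63 among those named). Where a fold compares with a value not above background, it is a bound or is left out. Figures were drawn with matplotlib 3.10.9.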

Additional observations from a re-analysis of the deposited data

How the results depend on the processing

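The rise at 12 to 21 h was called in 7 probes, and the fall at 36 to 45 h in 8, under each background, offset, scaling, prior and choice of arrays in the fit. With no filter the rise was called in 8, and among probes detected on all 16 arrays, where FANCA is not tested, the fall was called in 7. Without single arrays the counts were 7 to 8 and 8 to 9. A straight line called 0 probes time-dependent (1953 of all probes in place of 6533), and without single arrays the spline called 7 to 8. At 36 to 45 h against 0 to 9 h, the 3 calls became 1 with median scaling, 0 with only the arrays compared and 2 to 4 without single arrays. BLM lost its call without the 9, 39 or 45 h array (adjusted p = 0.068, 0.057 and 0.072, limma), and BRCA1 gained one without 36 h (0.032). At 6 and 9 h against 0 and 3 h, the 1 call became 2 without background correction, with median scaling and with probes detected on all 16 arrays, 0 with only the arrays compared, and 0 to 3 without single arrays. The 13 steps past 1.7-fold became 3 without background correction and 6 at 2-fold.

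Some uncalled values turned direction, at times also when single arrays were left out. With median scaling these were FANCG (0.0368) and EXO1 (0.0032) at 24 to 33 h against 12 to 21 h, FANCA ILMN_7097 (0.0234) at 36 to 45 h against 24 to 33 h, and FANCG (0.0365) and CHEK1 (0.0608) at 36 to 45 h against 0 to 9 h. Without background correction FANCA ILMN_7097 stood at 0.0057 at 36 to 45 h against 24 to 33 h. The cause was not tested. With only the arrays compared, all calls went from 3527 to 2178 (12 to 21 h), 3730 to 2475 (36 to 45 h against 0 to 9 h), 2957 to 882 (6 and 9 h) and 3 to 12 (24 to 33 h). Median scaling split all calls into 2793 higher and 1029 lower at 36 to 45 h against 0 to 9 h (1932 and 1798), and 1794 and 1007 at 6 and 9 h (1583 and 1374).

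Of 491 rows without single-probe detection p-values that lay over the control mean plus 3 SD on all 16 arrays, 70 were above background on fewer than 3 arrays by detection p, against 0 of 6619 single-probe rows. Keeping such rows by intensity, an alternative chosen after seeing the data, left each count of called member probes as it was. Dim probes are compressed by the offset. No paired analysis was possible because each time point has 1 array.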

Other observations

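Several rows of the gene lists were bright but not tested, because their detection p-values, which no single probe would give, were seldom under 0.05. NBN ILMN_1630, of the complex that senses broken ends and named here after its values were seen, was above background on 1 array and averaged 9.09, 9.33, 9.20 and 8.83 (log2) in the 4 windows. CCNE2 ILMN_17027, the G1/S cyclin E2, chosen in the same way, was above background on 0 and averaged 7.56, 8.20, 8.21 and 6.53.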
